A study of Mus musculus and Homo sapiens with 4 samples.

Results

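The 9 genes described here are the interferon regulatory factors (IRFs) Irf1, Irf2, Irf3, Irf5, Irf7 and Irf9 and the signal transducers and activators of transcription (STATs) Stat2, Stat3 and Stat6, taken by symbol from the 23329 entries measured in mouse embryonic fibroblasts (MEFs). Each gene stood on 1 entry, and all 9 had a mean of at least 1 RPKM, RPKM being reads per kilobase of transcript, scaled to the mapped reads of each library. The series holds 4 libraries, of which the 2 from MEFs were used. One library, MEF WT, came from fibroblasts of wild-type embryos, and the other, MEF NEAT1 KO, from fibroblasts of embryos without Neat1, a nuclear non-coding RNA around which paraspeckles form. Both were labelled as C57BL/6 cells of E13.5 embryos at passage 2 to 3, grown in a mixture of DMEM and HamF12 with serum and without any stated treatment, and both were sequenced from poly-A RNA. The labels give neither the number of embryos behind a library nor the region deleted in the knockout. With 1 library per group there was no spread between replicates, no test between the groups was possible, and every difference below is that between 2 libraries.

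Neat1 itself had 29.5 RPKM in WT and 2.01 RPKM in KO, the direction of the labels. Xist, which is transcribed from the inactive X chromosome of female cells, had 28.6 RPKM in WT and 0.0500 RPKM in KO, while the Y-linked gene Eif2s3y was listed at 0 in WT and had 6.30 RPKM in KO. Genotype and the sex of the embryos can therefore not be told apart in any difference given here. All 12 fibroblast markers were present, led by Vim with 3151 RPKM in WT and 2448 RPKM in KO and Col1a1 with 1477 and 1874 RPKM, and the summed level of the list was 6924 RPKM in WT and 6898 RPKM in KO. Single markers differed, however, and 3 of the 12 were past a log2 ratio of 1 in KO, Lum (7.98 to 33.0 RPKM), Dcn (19.8 to 64.0 RPKM) and Pdgfra (4.18 to 13.8 RPKM), while Fn1 had 765 RPKM in WT and 517 RPKM in KO. Of 12 macrophage and leukocyte markers 10 were higher in KO and 3 past a log2 ratio of 1, and the sum of the list was 23.2 RPKM in WT and 56.7 RPKM in KO. The 3 were Lyz2 (13.9 to 34.7 RPKM), which made up most of the sum, Cd68 (2.79 to 7.26 RPKM) and Cd14 (1.67 to 4.73 RPKM). Fcer1g had 0.944 and 2.68 RPKM and Emr1 0.482 and 1.37 RPKM. Ptprc, which marks all leukocytes, had 0.0449 and 0.0813 RPKM, and Cd3e, a subunit of the T cell receptor complex, was listed at 0 in both libraries. The part of these markers in the results below was not tested, and in such bulk RNA a change in the number of cells of one type and a change of RNA per cell cannot be told apart.

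IRFs share an N-terminal DNA-binding domain that recognises repeats of GAAA, as found in the interferon-stimulated response element (ISRE), and STATs are latent cytoplasmic proteins that Janus kinases phosphorylate at cytokine receptors. After a type I interferon binds its receptor, Stat2 and Irf9 enter the nucleus as part of the complex ISGF3 and switch on antiviral genes, among them Irf7. Irf3 and Irf7 act a step earlier, since they are phosphorylated downstream of sensors of foreign nucleic acid and induce the interferon genes. Irf1 and Irf2 bind similar sites, Irf1 mostly as an activator and Irf2 mostly as a repressor. Irf5 acts in inflammatory cytokine induction, Stat3 in the response to cytokines of the interleukin 6 family and Stat6 in that to interleukins 4 and 13.

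Differences are given as log2 ratios of the KO value plus 1 over the WT value plus 1, so that 1 is about a doubling, and this understates the change of genes with low values. The 3 genes Irf7, Stat2 and Irf9 were past a log2 ratio of 1 in KO, Irf7 and Stat2 also past 2, and no gene of the 9 was below 0. Of the 11211 entries with a mean of at least 1 RPKM, 1.97% were above 1, 0.464% above 2 and 0.651% below -1, and 39.2% were above 0. Over all entries, 0.977% were above 1. The median log2 ratio of the 9 genes was 0.37, against -0.06 over the entries with a mean of at least 1 RPKM.

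**Figure D1:**
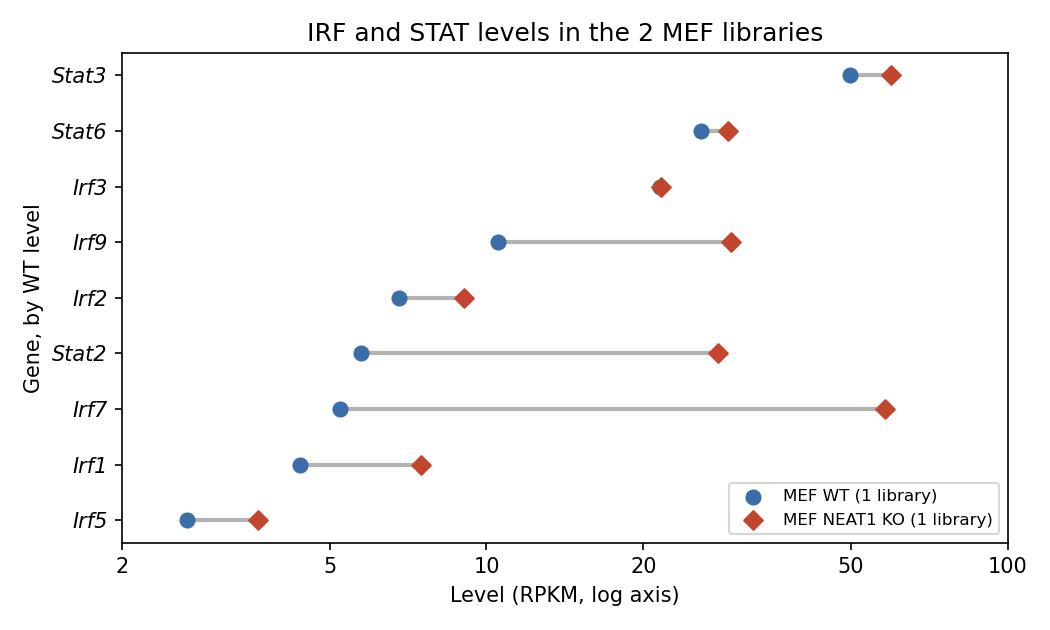
Level of each of the 9 genes in RPKM on a log axis, with a circle for the MEF WT library, a diamond for the MEF NEAT1 KO library and a line joining them (1 library each, no error bars). Irf7 runs from 5.24 to 58.1 RPKM, whereas both symbols of Irf3 lie at 21.5 and 21.6 RPKM.

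Irf7, the factor that amplifies interferon production once it has been induced, had 5.24 RPKM in WT and 58.1 RPKM in KO, 11.1 times as much (log2 ratio 3.24). It ranked 11 of all entries by log2 ratio. By level it ranked 7719 of the entries in WT and 1103 in KO. Its share of the summed level of the 6 IRF genes was 10.2% in WT and 44.9% in KO.

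Stat2, the STAT that carries the transactivation domain of ISGF3, had 5.75 RPKM in WT and 27.8 RPKM in KO (log2 ratio 2.10). Irf9, the DNA-binding subunit of that complex, had 10.5 RPKM in WT and 29.5 RPKM in KO (log2 ratio 1.40). The level of Irf9 was 1.83 times that of Stat2 in WT and 1.06 times in KO, so that the 2 transcript levels stood closer to each other in KO.

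The other 6 genes were within 1 of 0 on the log2 scale. Irf1 was highest among them, with 4.39 RPKM in WT and 7.50 RPKM in KO (log2 ratio 0.66). Its counterpart Irf2 had 6.78 and 9.06 RPKM (0.37), and Irf2 was above Irf1 in both libraries. Irf5 was the lowest of the 9 genes in either library, with 2.67 RPKM in WT and 3.65 RPKM in KO (0.34).

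Stat3 had the highest value of the 9 genes in either library, with 49.9 RPKM in WT and 59.8 RPKM in KO (log2 ratio 0.26). In KO Irf7 lay close to it, at 58.1 RPKM. Stat6 had 25.8 RPKM in WT and 29.0 RPKM in KO (0.16). Irf3, which is present before any infection and is switched on by phosphorylation, had 21.5 RPKM in WT and 21.6 RPKM in KO. Its log2 ratio of 0.00 lay nearest to 0 of the 9, and its sign depended on the scaling, from -0.05 when both libraries were rescaled to a common sum to 0.06 when the ratios were centred on their median.

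In WT the genes thus stood in the order Stat3, Stat6, Irf3, Irf9, Irf2, Stat2, Irf7, Irf1 and Irf5, and in KO in the order Stat3, Irf7, Irf9, Stat6, Stat2, Irf3, Irf2, Irf1 and Irf5. Irf3 had 4.11 times the level of Irf7 in WT, and Irf7 had 2.69 times that of Irf3 in KO. In KO, Irf9, Stat6 and Stat2 lay between 27.8 and 29.5 RPKM and Stat3 and Irf7 at 59.8 and 58.1 RPKM, so close that without replicates no order within these 2 groups can be drawn. The summed level of the 6 IRF genes was 51.1 RPKM in WT and 129 RPKM in KO, and that of the 3 STAT genes 81.5 and 117 RPKM.

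Because no replicate exists, each gene was also set beside the entries whose mean level lay between 0.5 and 2 times its own. For Irf7 there were 3020 such entries, of which 0.232% had a higher log2 ratio, for Stat2 4192 with 0.525% higher and for Irf9 3927 with 1.12% higher. For Irf1 3.45% were higher, and its log2 ratio of 0.66 lay above the 95th percentile of those entries, 0.48. The shares were 6.83% for Irf2, 8.30% for Irf5, 12.2% for Stat3, 16.9% for Stat6 and 38.9% for Irf3. These 5 genes lay above the median of their entries of like level but below the 95th percentile. Such a comparison uses the spread across genes between the same 2 libraries, which is not an estimate of the error between cultures.

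**Figure D2:**
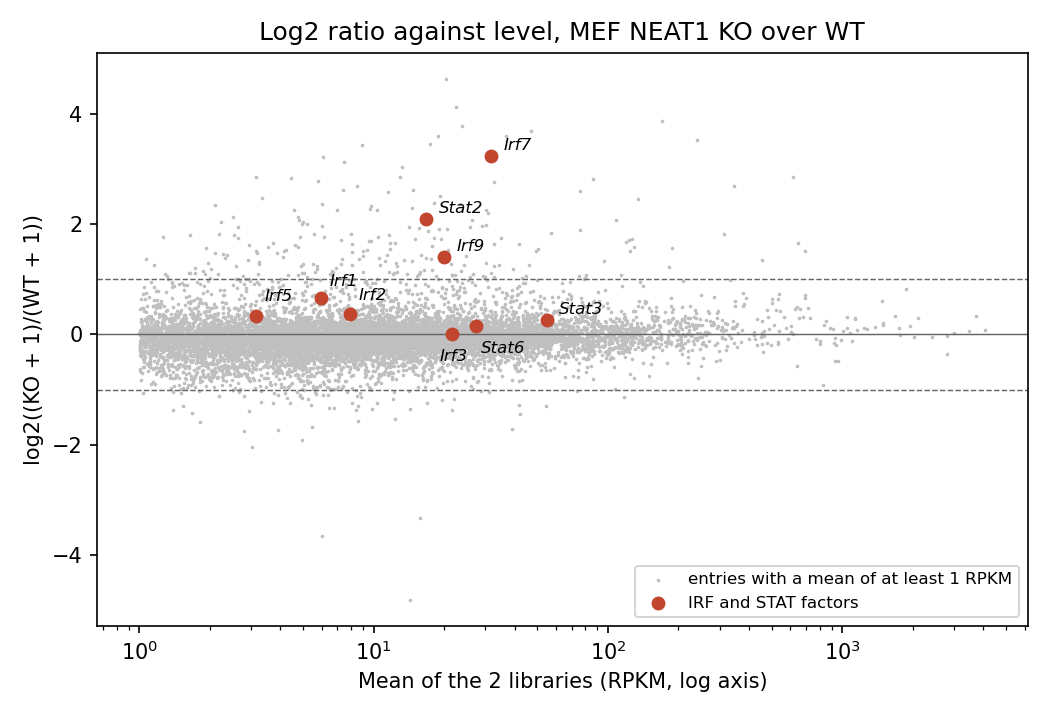
Log2 ratio of KO over WT against the mean of the 2 libraries in RPKM (log axis), with a grey point for each of the 11211 entries with a mean of at least 1 RPKM, a red point for each of the 9 genes and dashed lines at -1 and 1. Irf7, Stat2 and Irf9 lie above the upper dashed line at 3.24, 2.10 and 1.40. The other 6 lie between 0.00 and 0.66, with Irf1 the highest of them.

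The sequences upstream of 4 of these genes are shown, those of the 3 genes past a log2 ratio of 1 because they were higher together and that of Irf1 because it holds a STAT motif. They are the 250 bases before the start site in the RefSeq annotation of GRCm38, the build called mm10 in the labels, written 5′ to 3′ on the strand of the gene, with motif matches in capitals. The motifs searched on both strands were the ISRE core GAAANNGAAA and the gamma-activated site TTCNNNGAA, which reads the same on both strands, in windows that also held 50 bases after the start site. The windows are chr7:141266425-141266674 (minus strand) for Irf7, chr10:128270248-128270497 (plus strand) for Stat2, chr14:55603735-55603984 (plus strand) for Irf9 and chr11:53769764-53770013 (plus strand) for Irf1.
Irf7: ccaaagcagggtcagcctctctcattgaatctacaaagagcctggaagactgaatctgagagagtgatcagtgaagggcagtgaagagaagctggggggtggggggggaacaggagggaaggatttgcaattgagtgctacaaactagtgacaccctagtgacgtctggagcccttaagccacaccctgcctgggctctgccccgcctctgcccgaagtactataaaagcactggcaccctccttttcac
Stat2: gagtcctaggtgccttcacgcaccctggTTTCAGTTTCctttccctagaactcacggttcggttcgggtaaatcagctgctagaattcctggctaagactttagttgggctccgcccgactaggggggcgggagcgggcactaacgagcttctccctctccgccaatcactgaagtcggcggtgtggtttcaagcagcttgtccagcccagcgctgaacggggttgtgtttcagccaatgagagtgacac
Irf9: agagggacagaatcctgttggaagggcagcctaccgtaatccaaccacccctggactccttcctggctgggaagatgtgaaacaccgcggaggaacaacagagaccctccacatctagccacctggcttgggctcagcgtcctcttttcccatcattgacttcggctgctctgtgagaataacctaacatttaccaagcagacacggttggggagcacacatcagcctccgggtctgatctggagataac
Irf1: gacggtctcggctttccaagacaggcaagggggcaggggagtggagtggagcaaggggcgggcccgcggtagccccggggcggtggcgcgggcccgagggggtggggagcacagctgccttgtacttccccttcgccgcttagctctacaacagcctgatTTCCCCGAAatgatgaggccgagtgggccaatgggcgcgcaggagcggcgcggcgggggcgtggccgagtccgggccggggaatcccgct

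Stat2 held 1 match to the ISRE core, on the opposite strand from 222 to 213 bases before the start site, where the gene's strand reads TTTCAGTTTC. Irf1 held 1 gamma-activated site, TTCCCCGAA, from 90 to 82 bases before the start site. Irf2, whose window is not printed, held 1 match of each kind, the ISRE core from 241 to 232 and the gamma-activated site from 224 to 216 bases before its start. The windows of Irf3, Irf5, Irf7, Irf9, Stat3 and Stat6 held neither motif. For comparison, 3.44% of the 32851 RefSeq windows of that length held the ISRE core and 8.30% the gamma-activated site. A match is a description of letters and not of binding, and a window without one says only that these letters are not in it. The start sites of Stat2 and Stat3 used here lie upstream of the starts of their entries in the files. Irf2, Irf7 and Irf9 start upstream of the sites used here in another annotation, GENCODE, and windows at those starts were not searched. Irf1 and Irf9 each have a second annotated RefSeq window, in which neither motif was found.

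The 9 genes lie on different chromosomes apart from Irf3 and Irf7 on chromosome 7, Stat2 and Stat6 on chromosome 10 and Irf1 and Stat3 on chromosome 11, and none of these pairs are neighbours. Irf7 spans 141263183 to 141266424 of chromosome 7 on the minus strand. The nearest entry at lower coordinates, Phrf1, ends 431 bases away and had 23.7 RPKM in WT and 23.9 RPKM in KO. Cdhr5 on the other side was listed at 0 in both libraries. The neighbours of Stat2 (chromosome 10, 128270576 to 128292849), Apof and Il23a, reached at most 0.0234 RPKM in either library. Irf9 (chromosome 14, 55603985 to 55610030) lies 313 bases from Rnf31, which encodes a subunit of a ubiquitin ligase and had 9.37 RPKM in WT and 13.1 RPKM in KO (log2 ratio 0.45), and its other neighbour Rec8 reached at most 0.0163 RPKM. Over the 19 neighbouring or overlapping entries the log2 ratios ran from -0.48 to 0.45 with a median of 0.01, and none was past 1 in either direction. Of these 19 entries 9 reached 1 RPKM in a library, and the ratios of the others lay near 0 because of the pseudocount. Beside Irf7 and Irf9 only Phrf1 and Rnf31 were among the 9, and beside Stat2 neither neighbour was, so that for Stat2 no comparison with an expressed neighbour could be made.

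**Figure D3:**
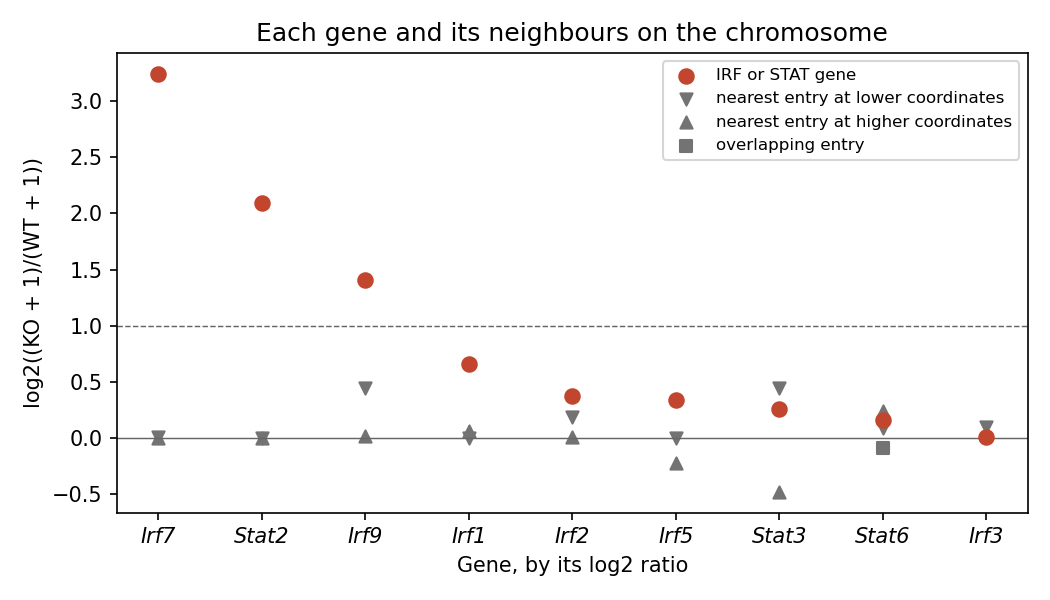
Log2 ratio of KO over WT of each of the 9 genes (red circles, ordered by that ratio) and of its nearest entries on the chromosome (grey triangles, with a square for the 1 overlapping entry). The dashed line marks 1, and all 19 grey symbols lie between -0.48 and 0.45, 9 of them from entries that reach 1 RPKM.

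The exons of several of these genes also overlap those of another gene in the GENCODE annotation of the same build. Among the measured entries, however, only those of Stat6 and Nab2 overlap. Bases shared by the other pairs therefore do not lie in the entries of both genes. Stat6 and Nab2 lie on opposite strands, and the strand of the MEF libraries is not stated. Reads in their shared bases may therefore count for either gene. Irf9 and Rnf31 lie on the same strand, with entries 313 bases apart, and the other pairs lie on opposite strands. In the annotation the overlap was 45 bases of Irf7 with Phrf1 (1.88% of its exonic bases), 123 bases of Irf9 with Rnf31 (3.97%) and 40 bases of Stat6 with Nab2 (1.06%). It was 8 bases of Irf3 with Bcl2l12 and 100 bases of Irf1 with Gm17334 (3.00%). Stat3 shared 72 bases (1.16%) with a gene on the opposite strand. Nab2, a co-repressor of early growth response factors, overlaps the end of Stat6 in the files and had 71.9 RPKM in WT and 67.5 RPKM in KO. No exon of another gene was annotated on those of Stat2, Irf2 or Irf5.

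The genes upstream of these factors were compared next, in lists drawn up by role. Of 11 interferon genes, 9 were listed at 0 in both libraries. Ifnb1, the interferon that fibroblasts make first, was listed at 0 in WT and had 0.0758 RPKM in KO, and Ifna4 had 0.0248 RPKM in WT and was listed at 0 in KO. The transcripts of these 11 listed interferon genes were therefore at or near 0 in both libraries, and other interferon genes were not listed.

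Of 10 interferon receptor and Janus kinase genes 9 were higher in KO and none was past a log2 ratio of 1. The median was 0.23. The type I receptor subunits Ifnar1 and Ifnar2 had 15.2 and 11.1 RPKM in WT and 18.4 and 15.6 RPKM in KO. The kinases that serve them, Tyk2 and Jak1, had 6.64 and 42.2 RPKM in WT and 7.49 and 44.4 RPKM in KO. Ifngr2, a subunit of the interferon gamma receptor, was the highest of the list with 42.4 and 53.9 RPKM.

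The kinases and adaptors that activate Irf3, Irf5 and Irf7 also stayed within 1 on the log2 scale. Of the 12 genes 8 were higher and 4 lower in KO, and their median was 0.06. Tbk1, the kinase of Irf3 and Irf7, had 6.72 RPKM in WT and 6.80 RPKM in KO, and its relative Ikbke had 3.76 and 5.64 RPKM (log2 ratio 0.48). The adaptors Mavs and Tmem173, which signal for RNA and DNA sensors, had 14.4 and 12.7 RPKM in WT and 12.4 and 14.3 RPKM in KO. Myd88, the adaptor through which Irf5 and Irf7 are activated at Toll-like receptors, was the highest of the list with 26.6 and 36.0 RPKM. Of 5 partner proteins 4 were found, among them the coactivators Crebbp and Ep300 and the Irf2-binding proteins Irf2bp1 and Irf2bp2, and their log2 ratios ran from -0.14 to 0.37.

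Targets of ISGF3 and Irf1 differed more than the receptor and adaptor genes. The interferon genes allowed no such comparison, since at or near 0 RPKM the pseudocount holds their log2 ratios near 0. Of 18 targets of ISGF3, all 18 were higher in KO and 15 past a log2 ratio of 1, with a median of 2.44. These 15 were Ifit1, Ifit3, Isg15, Mx2, Oas1a, Oasl2, Rsad2, Usp18, Ifi44, Rtp4, Xaf1, Parp14, Dhx58, Ifih1 and Ddx58. The exceptions were Ifit2 with 2.47 RPKM in WT and 3.05 RPKM in KO, Oas2 with 0.0866 and 1.07 RPKM and Mx1 with 0.0149 and 1.02 RPKM. Oas2 and Mx1 had low values, for which the pseudocount of 1 understates the ratio, and with a pseudocount of 0.1 17 of the 18 were past 1. The list was drawn up with the values of several of its genes in these libraries already known, and it is no independent evidence of direction.

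Of 16 targets of Irf1, 14 were higher in KO and 7 past a log2 ratio of 1, with a median of 0.87. The 7 were the guanylate-binding proteins Gbp2 (2.65 to 16.7 RPKM) and Gbp3 (0.739 to 14.3 RPKM), the immunoproteasome genes Psmb8 and Psmb9, the peptide transporter Tap1, the class I transactivator Nlrc5 and Cd274, the ligand of an inhibitory receptor of T cells. Ciita and Il15 were lower in KO, at levels under 1 RPKM in both libraries, and B2m was the highest of the list with 527 RPKM in WT and 729 RPKM in KO (log2 ratio 0.47). Several of these genes also respond to ISGF3.

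Stat3 differed little itself (log2 ratio 0.26), but genes on either side of it were among the larger differences. Of 10 ligands and receptors of the interleukin 6 family 9 were higher in KO, and the median of the list was 0.51 on the log2 scale. The cytokine genes Il6 and Lif were past 1, Il6 with 2.09 RPKM in WT and 24.4 RPKM in KO (log2 ratio 3.04) and Lif with 7.63 and 57.9 RPKM (2.77). Il11 had 3.31 and 7.62 RPKM, a log2 ratio just under 1.00. Il6st, the shared receptor subunit gp130, had 55.5 and 78.9 RPKM, the highest of the list, and its partner Osmr had 29.0 and 53.1 RPKM.

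Of 10 targets of Stat3 all 10 were higher in KO and 5 past 1, with a median log2 ratio of 1.05. The 5 were Cebpd (24.3 to 89.6 RPKM), Bcl3 (5.10 to 18.3 RPKM), Saa3 (256 to 654 RPKM), Socs3 (7.87 to 21.3 RPKM) and Cebpb (3.15 to 8.09 RPKM). Timp1, an inhibitor of matrix proteases, was the highest of the list with 1354 RPKM in WT and 2388 RPKM in KO (log2 ratio 0.82). Most of these genes also respond to other factors, such as those of the NF-κB family.

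Negative regulators showed the same contrast between a few genes and the rest. Of 13 genes 9 were higher in KO and 2 past 1, and the median of 0.02 became -0.03 when both libraries were rescaled to a common sum. Usp18, which is induced by ISGF3 and blocks the type I receptor through Stat2, had 5.85 RPKM in WT and 88.0 RPKM in KO (log2 ratio 3.70), and Socs3, which restrains gp130 signalling, had a log2 ratio of 1.33. Socs1, the inhibitor of Janus kinases in interferon signalling, had 4.58 and 7.68 RPKM (0.64). Ptpn11, a phosphatase and the second highest of the list in KO, had 59.9 and 57.2 RPKM.

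For Stat6 neither the genes upstream nor its targets had a member past 1. Of 6 ligand and receptor genes of interleukins 4 and 13 the ligands were listed at 0 in both libraries, Il4ra had 30.7 RPKM in WT and 51.9 RPKM in KO (log2 ratio 0.74), and Il13ra1 had 6.45 and 6.89 RPKM. The highest log2 ratio of the list, 0.79, was that of Il2rg, a receptor subunit that interleukin 4 shares with other cytokines, with 0.604 and 1.78 RPKM. The 6 targets had a median log2 ratio of 0.06. Only 2 of these targets, and 3 of the 6 ligand and receptor genes, had a mean of at least 1 RPKM. For the others the pseudocount of 1 holds the ratio near 0, so that the median says little about them. The 2 targets were Socs1, with 4.58 RPKM in WT and 7.68 RPKM in KO (log2 ratio 0.64), and Cish. Ccl11, a chemokine that fibroblasts make in response to Stat6, had 0.163 and 0.375 RPKM, and Cish, an inhibitor of cytokine receptors and the highest of the list, had 10.5 and 9.99 RPKM.

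Over these lists 29 of the 111 distinct genes found were past a log2 ratio of 1 in KO and 0 past -1. The lists share 5 genes, Usp18 and Socs3 among them, and since they were drawn up with earlier results of these libraries known their counts are a description.

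**Figure D4:**
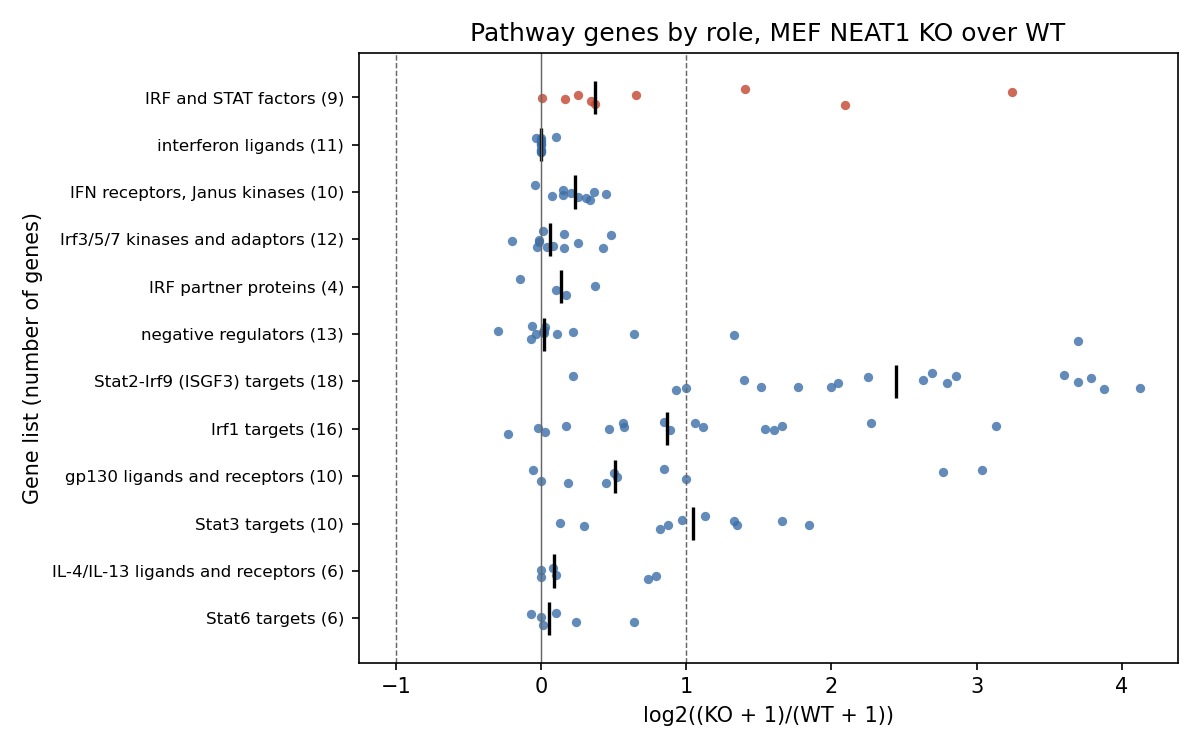
Log2 ratio of KO over WT for the 9 genes (red) and for the genes of 11 lists by role (blue), 1 point per gene with the number of genes in parentheses, a black bar at the median of each list and dashed lines at -1 and 1. The targets of ISGF3 have a median of 2.44 and those of Stat3 of 1.05, and the interferon receptors and the kinases and adaptors lie within 1 of 0.

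The entries whose pair of values lay closest to that of each gene past 1 were found by the distance over the 2 libraries on the log2 scale of RPKM plus 1. For Irf7 these were Ccl20 (4.75 to 68.7 RPKM, distance 0.27), Lif (0.47) and Usp18 (0.61). For Stat2 they were H2-Q4 (5.87 to 25.4 RPKM, 0.13), Tor3a (0.19) and Ccl5 (0.20), and for Irf9 Tap1 (0.10), Trex1 (12.1 to 30.9 RPKM, 0.19) and Lhfpl2 (0.23). H2-Q4 shares sequence with other class I genes, as do the Ifna, Ifit, Oas and Gbp genes within their families, and reads may be split between such copies. With 2 libraries likeness means only that 2 values are close.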

How the data were processed

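Of the 4 libraries of the series, the 2 of MEFs were used, 1 per group as given by the sample labels. The authors deposited RPKM values per entry, a group of RefSeq transcripts of 1 gene, with no normalization between libraries stated. The submitters' processing notes name CASAVA 1.8 and the builds mm10 and hg18, and the aligner and counter are not given in the sources used here. Of 20735 entries with a RefSeq gene of the same symbol 11538 start 1 base below it and 695 at it, so starts were raised by 1. The total number of reads is unknown, so no counting interval was computed.

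Log2 ratios were taken with a pseudocount of 1, and entries past 1 and past 2 were counted. The study's methods give a log2-fold change above 2 for genes higher in its human VCaP comparisons, not for the MEF libraries. No test was run. All 9 genes, genes of the role lists that were past 1, highest in a list or a direct partner, the neighbouring entries (none spanning over 1 Mb) and the 3 closest entries were named. The genes and lists were chosen with earlier results of these data known. Further family genes are not reported here, and protein sequences were not used here. The ratios were recomputed with 0.1 added in place of 1, without entries under 1 RPKM in both libraries, after centring, quantile normalization or rescaling to a common sum (above both deposited sums, 340687 RPKM in WT and 353163 RPKM in KO, so that values also rose against the pseudocount), and with entries summed by symbol. The scripts were tested on simulated data. Values were computed in Python 3.11.15 with pandas 2.3.3 and numpy 2.4.6 and drawn with matplotlib 3.10.9.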

Additional observations from a re-analysis of the deposited data

How the results depend on the processing

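The 38 results were recomputed under 6 alternatives, and 218 of the 226 values stayed within 1.5 times a count or within 0.58 of a log2 ratio. That number includes 38 values from summing by symbol, which changed none of the results. It also includes 35 values from the filter at 1 RPKM, which changed no count. In each alternative 3 of the 9 genes were past a log2 ratio of 1 and 2 past 2. Summing by symbol and the filter at 1 RPKM could not change this, since each gene stood on 1 entry and above 1 RPKM. Irf7 ranged from 3.24 to 3.45, Stat2 from 2.10 to 2.26 and Irf9 from 1.40 to 1.48. With a pseudocount of 0.1 the entries above 1 numbered 500, those above 2 118 and those below -1 540, against 228, 52 and 78, so that 48.1% in place of 74.5% of the entries past 1 were higher in KO. The median of the ISGF3 targets was then 3.27, and 1 gene upstream of Stat6 was past 1. Rescaling to a common sum, which also raised all values against the pseudocount of 1, gave 282 entries below -1, with 53.2% of the calls higher, and again 1 gene upstream of Stat6. The median log2 ratio of entries at 1 RPKM or more in both libraries moved by -0.05 under it, and the 2 changes were not run apart. With at least 1 RPKM in a library the median upstream of Stat6 was 0.74, over fewer genes. The reads behind low entries are unknown, which limits what their ratios show. No paired analysis was possible because each group holds 1 library.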
